A study of Mus musculus with 6 samples.

Results

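The genes described here are 9 mouse CC chemokines that attract monocytes, namely Ccl2, Ccl3, Ccl4, Ccl5, Ccl6, Ccl7, Ccl8, Ccl9 and Ccl12. They were taken by symbol from the 49568 gene symbols of a count table, and all 9 were found. The table comes from bulk RNA-sequencing of whole lungs of 3 TNF+ and 3 TNF- female mice on a C57BL/6 background, 4 months old. TNF+ mice are TNF-Tg mice, a transgenic line that overexpresses a single copy of the human TNF gene and develops erosive arthritis and pulmonary vascular disease. TNF- mice are their wildtype littermates. The promoter that drives the transgene is not given in the sources used here. The comparison asks which of the chemokine genes differed between TNF+ and TNF- lungs, by how much, and how the mixture of their transcripts differed.

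CC chemokines are small secreted proteins with a pair of adjacent cysteines, which bind G protein-coupled receptors on leukocytes and direct their migration. Ccl2, Ccl7 and Ccl12 are monocyte chemoattractant proteins that act on the receptor Ccr2 and draw inflammatory monocytes out of the bone marrow and into tissue. Ccl3, Ccl5, Ccl6 and Ccl9 are ligands of Ccr1. Macrophages are a main source of many of them, and TNF is a known inducer of several through the transcription factor NF-kB.

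Total counts per lung lay between 25396923 and 32529408, and a gene with 3 counts stood at 0.0882 to 0.131 CPM. CPM are counts put on a common library size, here after scaling with edgeR's TMM factors. In TNF+ replicate 1, Gm42418 alone took 5.22% of the counts, against at most 0.274% in each other lung, and TNF- replicate 1 held 3441 CPM of 6 squamous epithelium markers and 1452 CPM of 6 skeletal muscle markers, against at most 39.4 CPM of either list in each other lung. The call of each of the 9 genes was the same without both of these lungs. The markers of lung epithelium and endothelium Sftpc and Pecam1 were abundant in every lung, with at least 286171 and 13271 counts. Mouse Tnf had 106, 213 and 405 counts in TNF+ lungs against 16, 14 and 35 in TNF- lungs. How many of these reads come from the human transgene was not tested.

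Of the 9 chemokine genes, 8 were higher in TNF+ lungs and none was lower (0 of 9), by the quasi-likelihood test of edgeR at an adjusted p below 0.05 (Benjamini-Hochberg, over the 19199 genes tested). Among all 19199 genes tested, 24.0% were called higher, 23.4% were called lower, and 47.4% were called in either direction. The median log2 fold change of the 9 genes was 3.95, against 0.03 over all genes tested. The lowest TNF+ value exceeded the highest TNF- value in the same 8 genes, an arrangement found in 30.5% of the genes tested, while 58.7% had groups that did not overlap in either direction. All 8 had a log2 fold change of at least 1, and 10.3% of the genes tested were called higher with a change of that size. The exception was Ccl5. All 9 passed the filter on low counts, but Ccl2, Ccl4, Ccl7 and Ccl12 passed it only through the TNF+ lungs. Whole lung RNA cannot tell a change in the number of cells that express a gene from a change in RNA per cell.

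**Figure D1:**
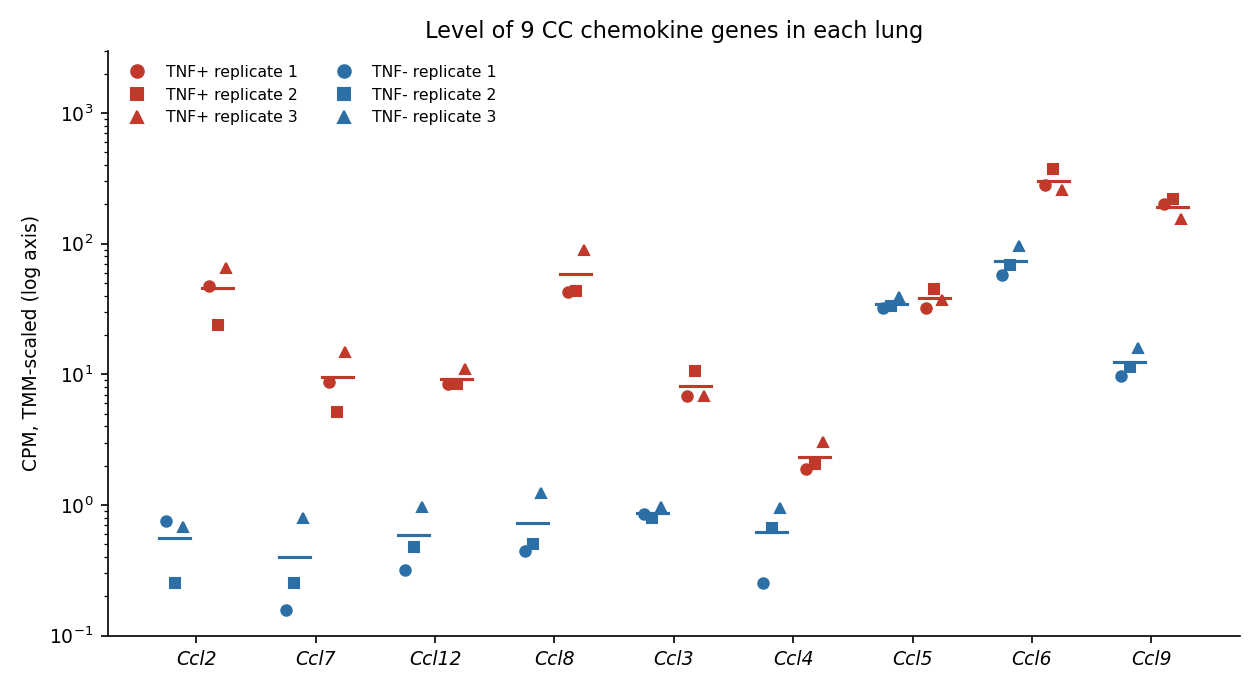
Level of each of the 9 chemokine genes in every lung, in TMM-scaled CPM on a log axis. Each symbol is 1 lung, with TNF- lungs in blue on the left and TNF+ lungs in red on the right of each gene, and horizontal lines are group means. The red and blue points are apart for 8 genes and overlap for Ccl5, which stood at 32.2 to 45.0 CPM in all 6 lungs.

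The largest differences lay in the monocyte chemoattractant group. Ccl2, the main ligand of Ccr2 (chromosome 11 of mm10, 82035571 to 82037453 on the plus strand, 3 exons), had 1084, 698 and 2100 counts in TNF+ replicates 1 to 3 and 24, 8 and 23 counts in TNF- replicates 1 to 3. The lowest TNF+ lung lay 31.5 times above the highest TNF- lung in CPM. The means were 45.6 ± 20.9 CPM (SD, n = 3) and 0.563 ± 0.271 CPM (SD, n = 3). The log2 fold change was 6.32 (standard error 0.49, edgeR adjusted p = 3.99e-05), an 80.2-fold difference that ranked 45 among the 19199 genes tested when these were ordered from the largest rise.

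Ccl8 (82115185 to 82116799, plus strand), a relative of Ccl2 made largely by macrophages, had 971, 1274 and 2864 counts in TNF+ lungs and 14, 16 and 42 counts in TNF- lungs. Replicate 3 was the highest of both groups, and the groups did not overlap. Its log2 fold change of 6.31 (standard error 0.47, edgeR adjusted p = 3.34e-05) ranked 46, next to that of Ccl2. Without TNF- replicate 3 the fold change was 122 in place of 79.1.

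Ccl7 (82045712 to 82047525, plus strand), a second Ccr2 ligand that is next to Ccl2 on the chromosome, had 202, 150 and 473 counts against 5, 8 and 27. Its lowest TNF+ value was 6.47 times the highest TNF- value. The log2 fold change was 4.54 (standard error 0.60, edgeR adjusted p = 0.000541). The highest TNF- lung, replicate 3, carried much of the TNF- mean, and without it the log2 fold change was 5.51.

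Ccl12 (82101845 to 82103400, plus strand), a mouse chemokine that also acts on Ccr2, had 194, 246 and 351 counts against 10, 15 and 33. It varied least of this group among TNF+ lungs, with a coefficient of variation of 15.7%, where Ccl2, Ccl7 and Ccl8 had 45.9%, 50.8% and 45.9%. Its log2 fold change was 3.96 (standard error 0.37, edgeR adjusted p = 8.99e-05).

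Ccl3 and Ccl4, the macrophage inflammatory proteins 1-alpha and 1-beta, were low in both groups. Ccl3 (83647844 to 83649355, minus strand) had 156, 311 and 219 counts in TNF+ lungs against 27, 25 and 33 in TNF- lungs. That is 8.10 ± 2.21 CPM (SD, n = 3) against 0.872 ± 0.0902 CPM (SD, n = 3). The log2 fold change was 3.21 (standard error 0.25, edgeR adjusted p = 4.21e-05). Ccl4 (83662584 to 83664683, plus strand) had 43, 60 and 97 counts against 8, 21 and 32. Its groups were the closest among the 8 genes called, with the lowest TNF+ lung 1.99 times above the highest TNF- lung. The log2 fold change of Ccl4 was 1.90 (standard error 0.43, edgeR adjusted p = 0.00804), and on leaving out single lungs its adjusted p reached at most 0.0339.

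Ccl5 (83525778 to 83530518, minus strand), also called RANTES and known as a product of activated T cells and natural killer cells, had 740, 1316 and 1195 counts in TNF+ lungs and 1017, 1050 and 1325 in TNF- lungs. The groups overlapped. The means of 38.2 ± 6.42 CPM and 34.8 ± 3.64 CPM (SD, n = 3 each) differed by a log2 fold change of 0.14, with a 95% interval from -0.19 to 0.46 (edgeR adjusted p = 0.457). The interval leaves out any rise as large as those of the other 8 genes. Leaving out single lungs kept the log2 fold change of Ccl5 between 0.00 and 0.22.

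Ccl6 and Ccl9 were the most abundant of the 9 in counts in TNF+ lungs. Ccl6 (83587882 to 83593087, minus strand, 4 exons) had 6443, 10834 and 8308 counts against 1831, 2169 and 3268. The groups did not overlap, and the log2 fold change was 2.03 (standard error 0.21, edgeR adjusted p = 0.00018). Ccl9 (83572919 to 83578636, minus strand, 4 exons), a ligand of Ccr1 and a close relative of Ccl6, had 4586, 6406 and 4967 counts against 309, 360 and 543. It had the lowest p-value of the 9 genes, at rank 155 of all genes tested, and its log2 fold change was 3.95 (standard error 0.22, edgeR adjusted p = 9.56e-06).

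The genes did not peak in the same lung. Among TNF+ lungs, replicate 3 had the highest CPM of Ccl2, Ccl7, Ccl12, Ccl8 and Ccl4, while replicate 2 had the highest CPM of Ccl3, Ccl5, Ccl6 and Ccl9. Replicate 3 was also the lowest of the TNF+ lungs for Ccl6 and Ccl9. Among TNF- lungs, replicate 3 was the highest for 8 of the 9 genes and replicate 1 for Ccl2. TNF- replicate 3 also had the highest level of the TNF- lungs of 6 B and plasma cell markers, 366 CPM against 126 CPM in the lowest TNF- lung (187 against 100.2 CPM without Jchain). It was also the highest TNF- lung for the T and natural killer cell (110 against 85.2 CPM in the lowest) and neutrophil sums (143.5 against 85.3 CPM). The same held for the macrophage (2996 against 2943 CPM) and lung epithelial sums (40770 against 33660 CPM). The sums of the other marker lists peaked in another TNF- lung. The part of these cell types in the values of that lung was not tested.

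Of the 9 genes, 5 had an upstream sequence in the RefSeq table used here (GRCm38.p6), and 4 are shown because they form neighbouring pairs, Ccl8 with Ccl12 and Ccl9 with Ccl6, whose partners differed in fold change. Each line gives the 250 bases before the annotated start, 5′ to 3′ on the gene's strand. Capitals mark the letters TATAAA and TGANTCA and the NF-kB consensus, on either strand, and overlapping matches run together.
Ccl8: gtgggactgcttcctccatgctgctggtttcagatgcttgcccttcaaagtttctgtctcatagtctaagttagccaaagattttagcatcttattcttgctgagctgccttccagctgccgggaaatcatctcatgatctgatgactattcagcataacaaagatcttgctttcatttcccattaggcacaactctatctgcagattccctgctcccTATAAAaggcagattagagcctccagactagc
Ccl12: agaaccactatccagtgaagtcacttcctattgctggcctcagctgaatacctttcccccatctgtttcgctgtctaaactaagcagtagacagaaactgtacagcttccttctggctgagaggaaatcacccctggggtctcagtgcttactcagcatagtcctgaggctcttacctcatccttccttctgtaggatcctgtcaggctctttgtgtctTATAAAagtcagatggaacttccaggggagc
Ccl9: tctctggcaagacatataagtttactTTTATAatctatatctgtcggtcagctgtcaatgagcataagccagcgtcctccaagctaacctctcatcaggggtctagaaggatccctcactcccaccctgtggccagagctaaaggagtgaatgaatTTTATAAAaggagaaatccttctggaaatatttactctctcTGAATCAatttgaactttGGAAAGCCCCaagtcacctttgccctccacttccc
Ccl6: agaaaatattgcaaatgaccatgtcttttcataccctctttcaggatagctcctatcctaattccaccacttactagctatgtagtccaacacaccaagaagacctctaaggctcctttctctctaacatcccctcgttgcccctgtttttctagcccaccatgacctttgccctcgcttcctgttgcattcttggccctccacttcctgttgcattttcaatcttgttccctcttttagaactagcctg
These windows lie at chr11:82114935-82115184 and chr11:82101595-82101844 on the plus strand, and at chr11:83578637-83578886 and chr11:83593088-83593337 on the minus strand. Ccl8 and Ccl12 both hold TATAAA, at 32 to 27 and 31 to 26 bases before the start. This motif is in 12.4% of the 32851 RefSeq windows of that length. Ccl9 holds TATAAA on either strand at 3 places, 2 of which overlap, with TGANTCA at 53 to 47 bases and an NF-kB consensus match at 35 to 26 bases before the start. These motifs are in 6.75% and 7.25% of all windows. In the windows of Ccl6 and Ccl3 none of the letters searched was found (0 matches), nor did any of the 5 windows hold TTCNNNGAA (7.02% of all windows) or GAGGAAGT (2.44%). A match is a description of letters and not a binding site.

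Levels between genes were compared per length, as CPM divided by the merged exon length in kilobases (RPKM). Merged exons of Ccl5 and Ccl6 span 960 and 1795 bases, and their longest transcripts 668 and 1440 bases. The order of the genes and their shares therefore depend on the length used. In TNF- lungs Ccl6 (41.4 ± 10.96 RPKM, SD, n = 3) and Ccl5 (36.2 ± 3.79) stood far above the rest. Their ranges overlapped each other but not that of Ccl9 (4.07 ± 1.05), and the other 6 genes had means between 0.495 and 1.43 RPKM, with ranges that overlapped between neighbours in the order. In TNF+ lungs the order was Ccl6 (169 ± 32.8), Ccl8 (114 ± 52.5), Ccl9 (62.9 ± 10.8), Ccl2 (40.1 ± 18.4), Ccl5 (39.8 ± 6.69), Ccl12 (17.3 ± 2.71), Ccl7 (11.9 ± 6.07), Ccl3 (10.6 ± 2.88) and Ccl4 (3.51 ± 0.941). Between neighbours in that order, the ranges were apart for Ccl8 and Ccl9, for Ccl5 and Ccl12, and for Ccl3 and Ccl4, and overlapped for the other 5 pairs.

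Summed over the 9 genes, the level was 470 ± 50.3 RPKM (SD, n = 3) in TNF+ lungs and 87.3 ± 18.3 RPKM (SD, n = 3) in TNF- lungs, a ratio of 5.38. The make-up of this pool differed as well. Ccl5 made up 37.6% to 46.0% of it in TNF- lungs and 7.49% to 9.96% in TNF+ lungs. Ccl2, Ccl7, Ccl12 and Ccl8 together made up 2.98% to 5.39% of the pool in TNF- lungs and 27.3% to 52.3% in TNF+ lungs, where Ccl8 alone held 18.1% to 33.7%. Ccl6 held 44.3% to 49.6% in TNF- lungs and 27.8% to 43.9% in TNF+ lungs, so that its share was lower although its level was higher. These shares are a description, with no test.

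**Figure D2:**
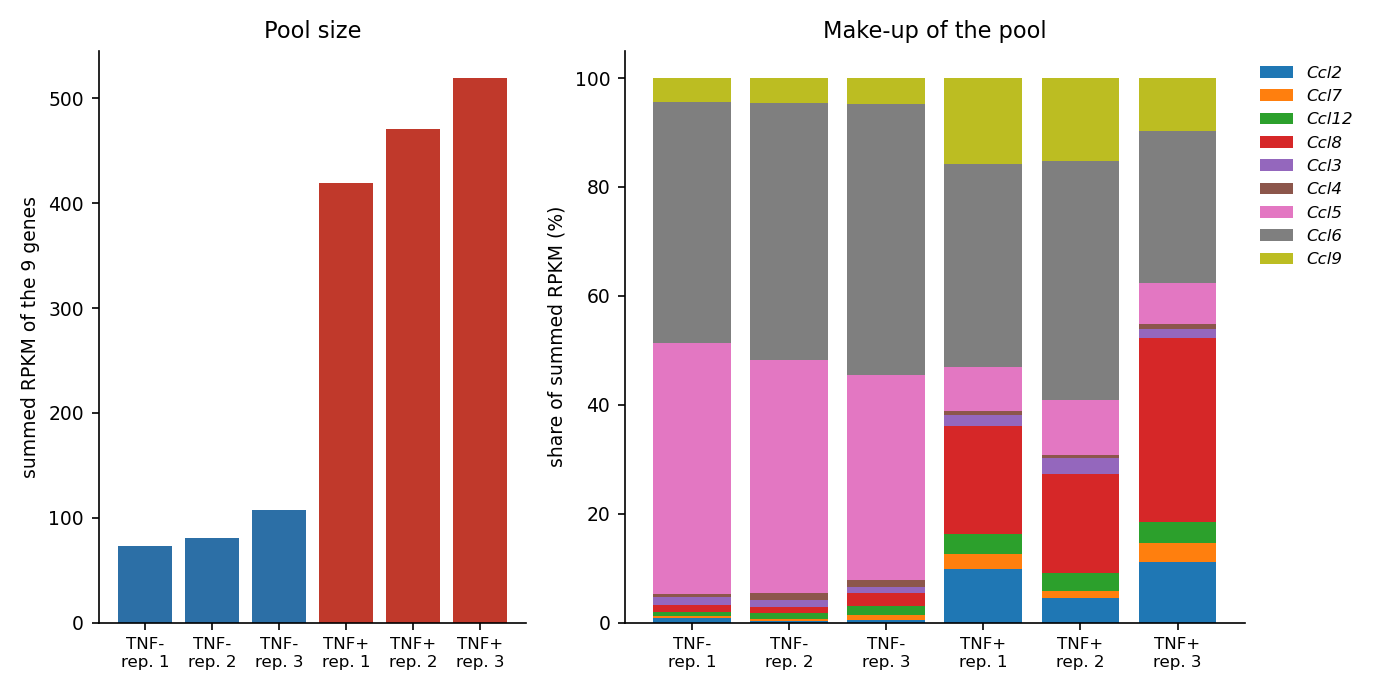
Summed level of the 9 chemokine genes in each lung in RPKM (left, bars from 0) and the share of each gene in that sum (right, in percent). The pool averaged 87.3 RPKM in TNF- lungs and 470 RPKM in TNF+ lungs, and the bands of Ccl6 and Ccl5 that filled most of it in TNF- lungs gave way to wider bands of Ccl8, Ccl2 and Ccl9.

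Ratios of gene pairs within a lung, which do not depend on library size, were compared for 6 pairs with exact two-sided permutation tests over lungs, which cannot go below p = 0.1 for 3 lungs against 3. The ratio of Ccl6 to Ccl9 per length was 10.1, 10.2 and 10.2 in TNF- replicates 1 to 3, and 2.38, 2.87 and 2.84 in TNF+ replicates 1 to 3. The TNF- lungs were almost equal in this ratio although their Ccl6 levels differed by 1.66 times, and the groups were far apart. The ratio was lower in TNF+ lungs by 1.92 on the log2 scale (exact permutation test, p = 0.1, adjusted p = 0.2 over the 6 pairs). Ccl2 over Ccl12 was 2.64, 1.34 and 2.82 in TNF+ lungs and 1.13, 0.252 and 0.329 in TNF- lungs. These groups did not overlap either (exact permutation p = 0.1, adjusted p = 0.2). Nor did those of Ccl5 over Ccl4, at 8.47 to 15.1 in TNF+ lungs and 28.5 to 87.4 in TNF- lungs (exact permutation p = 0.1, adjusted p = 0.2). The groups overlapped for Ccl2 over Ccl7 (exact permutation p = 0.3), Ccl3 over Ccl4 (p = 0.2) and Ccl2 over Ccl8 (p = 1). The Ccl2 to Ccl8 ratio differed by -0.02 on the log2 scale, and this sign changed when any of 3 lungs was left out.

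**Figure D3:**
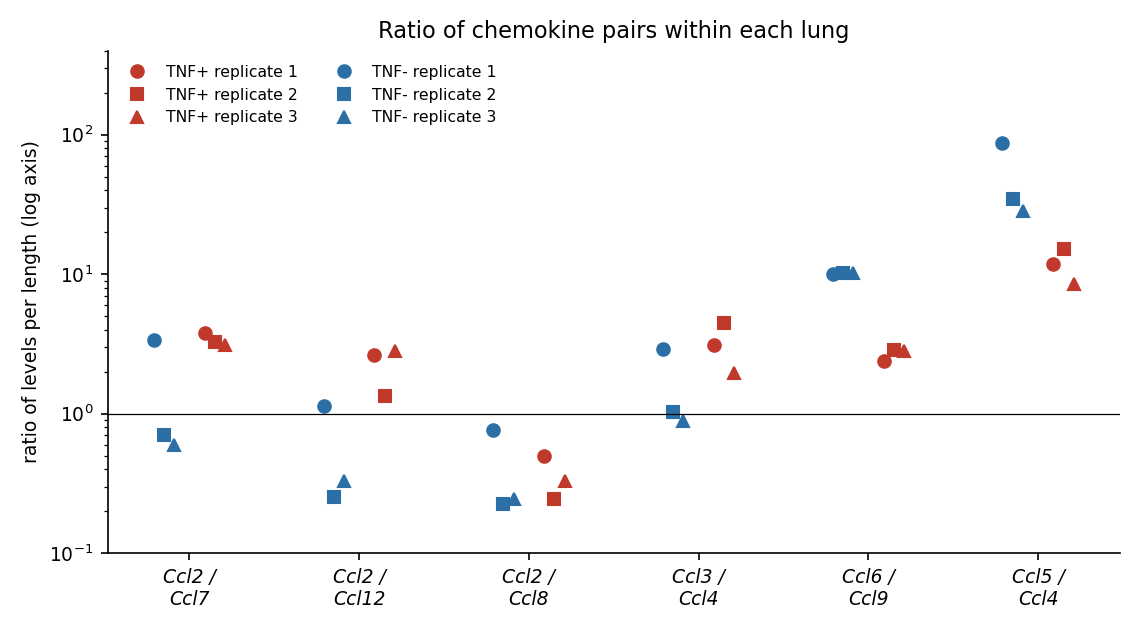
Ratio of the levels per length of 6 chemokine pairs within each lung, on a log axis, with TNF- lungs in blue and TNF+ lungs in red and the horizontal line at equal levels. For Ccl6 over Ccl9 the blue points lie on top of each other near 10.2 and the red points lie between 2.38 and 2.87.

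Coding sequences of the 9 genes in GENCODE M21 were aligned to see how close the pairs are. Ccl2 and Ccl12 were identical at 69.2% of the bases of the shorter sequence, Ccl6 and Ccl9 at 69.3%, and Ccl3 and Ccl4 at 68.1%. The other compared pairs stood at 69.1% (Ccl2 and Ccl7), 67.4% (Ccl2 and Ccl8) and 59.7% (Ccl5 and Ccl4). Over all pairs of the 9 genes the range was 54.7% to 69.8%, the highest being Ccl8 and Ccl12. No window of 100 bases of any transcript of the 9 genes occurred in the transcripts of another gene (0 windows), so reads of that length can be told apart. On the opposite strand, Gm17268 overlaps Ccl2 and had 3 counts in 1 lung and 0 in the others, and E230016K23Rik overlaps Ccl6 and had 10 to 52 counts per lung. The libraries keep the strand, but whether the counting used it is not given in the sources used here.

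The 9 genes lie in 2 groups on chromosome 11. Ccl2, Ccl7, Ccl12 and Ccl8 lie within 81.2 kb, and Ccl5, Ccl9, Ccl6, Ccl3 and Ccl4 within 139 kb, with 1409 kb between the groups. The genes of the first group had log2 fold changes from 3.96 to 6.32, and those of the second from 0.14 to 3.95. Ccl11, the eosinophil chemokine eotaxin, lies between Ccl7 and Ccl12 and was not called, with 2.34 ± 0.165 CPM in TNF+ and 2.70 ± 0.529 CPM in TNF- lungs (SD, n = 3 each, log2 fold change -0.21, 95% interval -0.72 to 0.30). Of 31 tested genes other than CC chemokines from Ccl2 to Ccl4, 10 rose and 5 fell in TNF+ lungs, or 48.4%, close to the 47.4% called among all genes. The largest changes among them were those of Tmem132e (log2 fold change 4.21, or 5.002 without TNF- replicate 2 and 3.62 without TNF- replicate 3), Mmp28 (-3.26), which encodes a matrix metalloproteinase, and Slfn14 (-2.95).

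**Figure D4:**
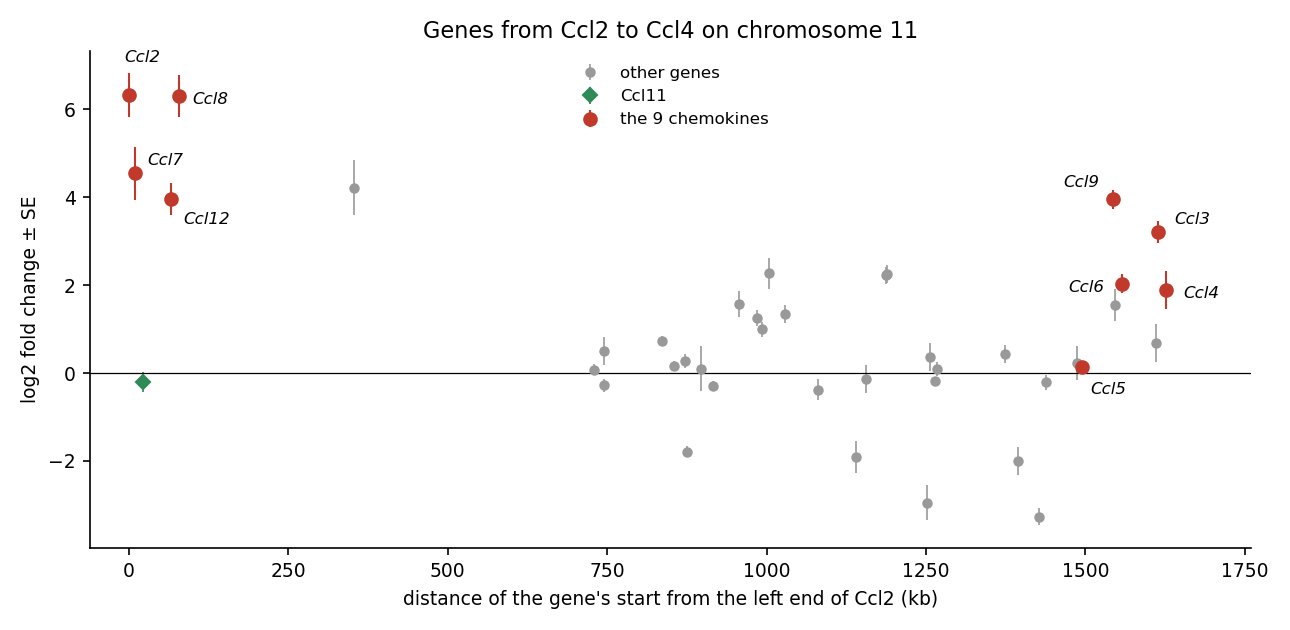
Log2 fold change of TNF+ over TNF- lungs (points, with standard error as bars) for the tested genes from Ccl2 to Ccl4, by the distance of the gene's start from the left end of Ccl2 in kb. The 4 chemokines at the left end lie between 3.96 and 6.32, Ccl11 among them lies at -0.21, and the other genes scatter on both sides of 0.

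The receptors of these chemokines changed in both directions. Of 7 genes on a list of receptors and decoy receptors, 6 were tested, 4 were higher and 1 was lower. Ccr2, the receptor that inflammatory monocytes carry, had 1722, 1283 and 2654 counts in TNF+ lungs and 554, 599 and 545 in TNF- lungs, a log2 fold change of 1.94 (standard error 0.22, edgeR adjusted p = 0.000271). Ccr1, which Ccl3, Ccl6 and Ccl9 act on, had 272, 331 and 349 counts against 80, 103 and 114 (log2 fold change 1.90, edgeR adjusted p = 6.81e-05). Ackr1, which binds chemokines on venular endothelium without signalling, had 143, 140 and 171 counts against 13, 17 and 25. It had the largest rise of the list (log2 fold change 3.26, edgeR adjusted p = 4.9e-05).

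Ackr2, a decoy receptor that takes up and degrades inflammatory CC chemokines and is known from lymphatic endothelium, fell. It had 235, 372 and 360 counts in TNF+ lungs and 2160, 2261 and 2074 in TNF- lungs. The groups lay far apart, and the log2 fold change was -2.55 (standard error 0.12, edgeR adjusted p = 5.09e-06). Ccrl2, an atypical receptor that binds chemerin, had 1451, 1054 and 905 counts against 877, 940 and 688. Its groups overlapped in CPM (log2 fold change 0.71, 95% interval 0.05 to 1.37, edgeR adjusted p = 0.0715), and without TNF+ replicate 3 its adjusted p was 0.026. Without TNF+ replicate 1 its log2 fold change was 0.28 (edgeR adjusted p = 0.307). Ccr3, the receptor of eosinophils, had 0 to 16 counts per lung and was not tested.

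**Figure D5:**
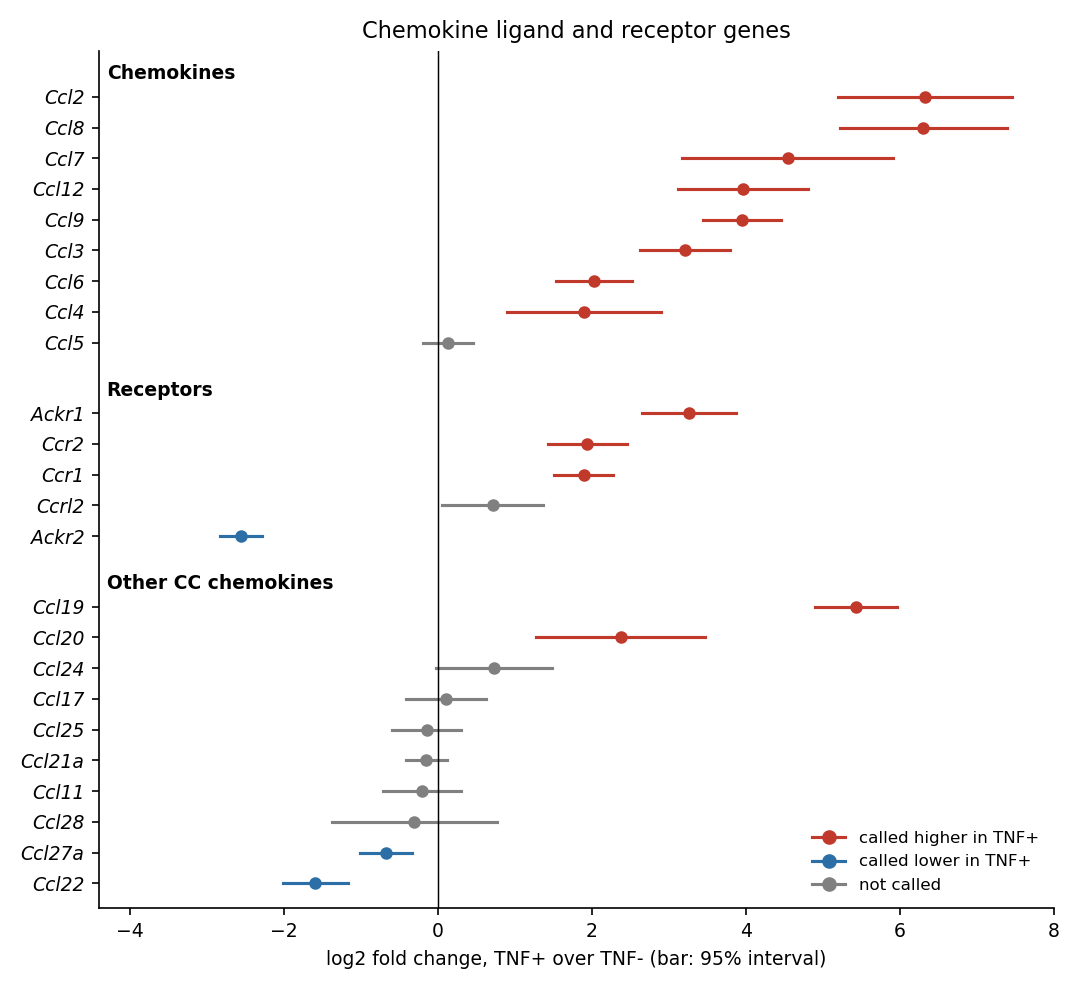
Log2 fold change of TNF+ over TNF- lungs (points) with 95% intervals (bars) for the 9 chemokines, 5 receptors and 10 other CC chemokines, in red where called higher, in blue where called lower and in grey where not called. The intervals of 8 of the 9 chemokines lie to the right of 0 and that of Ccl5 crosses it, while Ackr2 lies at -2.55 and the 10 tested chemokines at the bottom lie on both sides of 0.

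Of 12 other CC chemokine genes, 10 were tested, 2 were higher, 2 were lower and 6 were not called, with a median log2 fold change of -0.15. Ccl19, a ligand of Ccr7, rose by a log2 fold change of 5.43 and Ccl20, a ligand of Ccr6, by 2.38 (edgeR adjusted p = 4.19e-06 and 0.00431). Without TNF- replicate 3 the log2 fold change of Ccl20 was 3.14. Ccl22, a product of dendritic cells that acts on Ccr4, and Ccl27a were lower, with log2 fold changes of -1.59 and -0.67 (edgeR adjusted p = 0.000293 and 0.00655). Ccl11, Ccl17, Ccl21a, Ccl24, Ccl25 and Ccl28 did not pass, with log2 fold changes between -0.30 and 0.73. Ccl1 had 4, 4 and 8 counts in TNF+ lungs against 0, 0 and 1 and was not tested, and Ccl26 had 0 counts in every lung, which allows at most 3 counts per lung. Ccl19, Ccl21a and Ccl27a have near-identical copies in the mouse genome and are uncertain as single genes.

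Markers of the cells that make or follow these chemokines differed between the same lungs. Of 10 macrophage markers, 9 rose and 1 fell in TNF+ lungs, and their summed level was 11200 to 12460 CPM in TNF+ and 2943 to 2996 CPM in TNF- lungs. Without Lyz2, the most abundant of them, the sum was 4092 to 6196 CPM against 377 to 408 CPM. Csf1r, Adgre1 and Cd68 had log2 fold changes of 2.66, 3.20 and 3.33, and Siglecf was the marker that fell (-1.27). Of 10 monocyte markers, 6 were higher, 2 were lower and 2 were not called (1323 to 1494 CPM against 695 to 1101 CPM), with Ly6c2, Itgam and Plac8 at log2 fold changes of 1.03, 2.64 and 0.76. Of the 2 that were lower, Vcan stood at -1.48 (edgeR adjusted p = 0.00122). A large part of the monocyte sum was Fn1 (not called, log2 fold change 0.11), without which it was 550 to 782 CPM against 214 to 262 CPM. None of the markers on these lists was at 0 in every lung (0 markers).

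Relative to the mean log2 CPM of the 10 macrophage markers, which was 2.39 higher in TNF+ lungs, Ccl8 was higher by 3.85, Ccl2 by 3.79, Ccl7 by 2.09, Ccl9 by 1.57, Ccl12 by 1.56 and Ccl3 by 0.70. For these 6 genes the groups did not overlap (exact two-sided permutation test, p = 0.1, the smallest that 3 lungs against 3 allow, adjusted p = 0.129 over the 9 genes). Ccl5 was lower by 2.27 relative to the same markers, also without overlap (exact permutation p = 0.1, adjusted p = 0.129). Ccl6 and Ccl4 differed by -0.35 and -0.47, and their groups overlapped (exact permutation p = 0.3 and 0.4). The marker mean includes Marco, which rose most of the 10 (log2 fold change 7.10), and the values without Marco were not computed. Relative to the monocyte markers, whose mean was 0.87 higher, 7 genes were higher without overlap, and Ccl5 was lower by 0.75. In CPM, 58.7% of all genes tested had groups without overlap, and this share was not computed relative to markers. Of these 7 genes, Ccl2, Ccl7 and Ccl12 passed the filter on low counts only through the TNF+ lungs. The share of each gene's change that goes with cell numbers was not tested.

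Markers of other cell types differed between the groups as well, and for some lists a single gene set the summed level. Of 10 T and natural killer cell markers, 4 were higher, 3 were lower and 3 were not called. Their summed level was 354 to 504 CPM in TNF+ and 85.2 to 110 CPM in TNF- lungs, but Cd4 alone gave 267 to 407 CPM against 9.23 to 18.4 CPM. Without Cd4 the sum was 86.5 to 96.4 CPM in TNF+ and 75.9 to 91.8 CPM in TNF- lungs, and the groups overlapped. Cd3e, Cd3g and Cd8a had log2 fold changes of 0.23, 1.13 and 0.86, of which that of Cd3e was not called. Of the natural killer cell genes, Gzma, Ncr1 and Prf1 had log2 fold changes of -3.31, -2.22 and -1.23, while Nkg7 (0.12) and Klrb1c (-0.03) were not called. Of 6 B and plasma cell markers 5 were higher, with Ms4a1 and Cd79a at log2 fold changes of 0.79 and 1.04. Their sum was 2037 to 4153 CPM against 126 to 366 CPM, and most of it was Jchain (log2 fold change 5.16, or 6.43 without TNF- replicate 3), a plasma cell gene. Without Jchain it was 236 to 309 CPM against 100.2 to 187 CPM. Of 6 neutrophil markers 1 was higher and 3 were lower (65.5 to 101 against 85.3 to 143 CPM), with S100a8 and S100a9 at -1.04 and -1.77 and Ly6g not called (-0.78). Csf3r was the marker called higher (0.64), and without it the sum was 18.6 to 41.4 CPM in TNF+ and 55.2 to 95.9 CPM in TNF- lungs, with no overlap. Of 6 mast cell and eosinophil markers 5 were tested, 1 was higher and 3 were lower (106 to 122 against 134 to 171 CPM), with Mcpt4 and Tpsb2 at -2.72 and -3.63 and Cpa3 not called (-1.73). Without TNF+ replicate 3 these 3 genes stood at -3.79, -5.30 and -3.80, and Cpa3 was then called (edgeR adjusted p = 0.00659). Most of the sum was Kit (-0.78), without which it was 15.3 to 36.5 CPM in TNF+ and 2.70 to 5.03 CPM in TNF- lungs. This opposite order was that of Prg2, an eosinophil granule gene and the marker called higher, at 25.3 ± 11.1 CPM against 1.15 ± 0.809 CPM (SD, n = 3 each, log2 fold change 4.44, or 5.17 without TNF- replicate 3). Epx, which encodes eosinophil peroxidase, had 0, 0 and 2 counts in TNF+ lungs against 3, 7 and 10 and was not tested. All 6 endothelial markers were lower (1288 to 1459 against 3482 to 4280 CPM), among them Pecam1, Cdh5 and Kdr at -0.56, -1.17 and -1.44. Of 6 lung epithelial markers 5 were lower (16540 to 21670 against 33660 to 40770 CPM), with Sftpb and Scgb1a1 at -0.88 and -1.77 and Sftpc not called (-0.52), and of 6 fibroblast markers 4 were lower (957 to 1011 against 1483 to 2401 CPM), with Col1a1, Col1a2 and Col3a1 at -1.34, -0.59 and -1.74. Without the most abundant gene of each, the sums of these last 3 lists were still lower in every TNF+ lung than in every TNF- lung. Of the 56 calls on all marker lists, 42 held with each single lung left out and 14 were lost with at least 1 of them left out. Of the latter, 3 were monocyte markers (among them Plac8 and Cd300e), 2 macrophage markers (Fcgr1 and Mertk), 1 a B cell marker (Cd79b), 3 neutrophil markers (S100a8, Csf3r and Retnlg), 2 fibroblast markers (Col1a2 and Pdgfra) and 3 markers of squamous epithelium or skeletal muscle (Krt5, Ckm and Tnnt3). The part of these cell types in the chemokine values was not tested.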

How the data were processed

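Poly(A) RNA of 6 lungs was sequenced as stranded single-end libraries. Per the submitters' processing notes, reads were cleaned with Trimmomatic (version 0.36, while the paper's methods name another version), mapped with STAR (version 2.5.2b) to GRCm38.p5 (mm10) and counted with featureCounts. The strand setting and annotation are not given in the sources used here. The authors deposited raw counts per gene symbol, without normalization, and each column was matched to its mouse by genotype and number.

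The counts went into edgeR (version 4.0.16 in R version 4.3.3) after filterByExpr and TMM scaling. Genotype was the sole model term, and quasi-likelihood p-values were adjusted by Benjamini-Hochberg over 19199 genes. Standard errors are the log2 fold change divided by the square root of F, with intervals at 95%. Log2 CPM used a prior count of 2, and RPKM the merged exon lengths of GENCODE M21. Replicate mice differed by more than sampling noise (chi-square per degree of freedom 53.7 to 140). Floors of 3 counts cover counting error only.

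The 9 genes, the gene lists and the tests were chosen with earlier results of these data known. Named are the 9 genes, the receptors and other CC chemokines, the 3 cluster genes with the largest called changes, the first 3 markers of each list, and Gm42418, except 2 genes that are counted in their lists but not reported here. Further genes, among them Tnf, the antisense genes and the markers past the first 3 of a list, were named after their values were seen. Alternatives comprised limma-voom (limma version 3.58.1), DESeq2 (version 1.42.0), other scalings, filters, thresholds and dispersions, a replicate block, and lungs left out. Marker sums without their most abundant gene were added after seeing the data. The programs were tested on simulated counts.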

Additional observations from a re-analysis of the deposited data

How the results depend on the processing

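The 8 chemokine calls were the same 8 genes, each higher, with DESeq2, limma-voom, other scalings, no filter, robust dispersion, a required absolute log2 fold change of 1 or more, each lung left out in turn (8 in each fit) and without both first replicates. With at least 10 counts required in every lung, 6 of the 9 genes could be tested and 5 were called, since Ccl2, Ccl4 and Ccl7 were left out by that filter. Over all genes, 4320 were called when that size of change was required, in place of 9096, 7347 to 9164 with a lung left out, and 6064 without both first replicates. The ratio of the summed levels, 5.38, was 6.545 without Ccl6 and between 4.97 and 6.10 with a lung left out. It was 4.68 with the length of the longest transcript in place of merged exons, the lowest value found. The Ccl2 to Ccl8 difference lay between -0.34 and 0.55 with a lung left out, and turned positive without TNF+ replicate 2 (0.22), TNF+ replicate 3 (0.0091) or TNF- replicate 1 (0.5487). Relative to the monocyte markers or to Ptprc alone in place of the macrophage markers, Ccl4 was higher by 1.05 or 0.487 and Ccl6 by 1.175 or 0.614, in the opposite direction to the values above. These directions follow from the reference, since the monocyte markers and Ptprc rose less than the macrophage markers. Without TNF- replicate 3, the fold changes of Ccl7, Ccl8 and Ccl20 were 45.6, 122 and 8.81, in place of 23.3, 79.1 and 5.19.

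Ccrl2 passed the cutoff with DESeq2 (adjusted p = 0.0173), total counts only (0.0397), no filter (0.0265), the replicate block (0.0404) and without TNF+ replicate 3 (0.026), all by edgeR but the first. It did not pass in the other fits, among them that without TNF+ replicate 1 (log2 fold change 0.28, edgeR adjusted p = 0.307). Ccl27a lost the cutoff without both first replicates (edgeR adjusted p = 0.0515). Same-numbered mice are different animals and did not deviate together (correlations across genes -0.15, 0.00 and -0.24 for numbers 1 to 3). In the fit with a replicate block, 8 of the 9 chemokines, 6 receptors, 4 other CC chemokines and 7686 genes in all were called, and the log2 fold changes were 6.33 for Ccl2 and 0.13 for Ccl5. The low counts of Ccl2, Ccl3, Ccl4, Ccl7, Ccl8 and Ccl12 in TNF- lungs, 5 to 42 per lung, limit the precision of their fold changes.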
